A study of Mus musculus with 2 samples.

Results

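The integrated stress response genes examined here were 10 genes chosen by symbol (Atf4, Ddit3, Trib3, Chac1, Asns, Ppp1r15a, Atf5, Eif2ak3, Eif2ak4 and Sesn2), and all 10 were found among the 20938 genes of the deposited tables. RNA-seq had been performed on splenic Treg cells, taken 7 days after islet transplantation from Foxp3-Mettl14f/+ cKO mice and from littermate controls, with 1 library for each genotype. Mettl14 encodes a subunit of the complex that writes N6-methyladenosine (m6A) on mRNA. In the cKO mice a Cre recombinase driven by the Foxp3 promoter acts on 1 floxed Mettl14 allele in Foxp3-expressing cells, so that the other allele stays intact. The littermate controls are given as Mettl14 f/f in the methods and as wild type in the sample labels, while the labels call the cKO genotype a Foxp3 knockdown. Both kinds of recipient had a C57BL/6J background, were made diabetic with streptozotocin, received BALB/c islets under the kidney capsule and, for RNA-seq, were given no monoclonal antibodies. Treg cells were purified as CD4+CD25+ cells with a magnetic kit, and the age of the mice and the number of mice behind each library are not given in the sources used here.

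The integrated stress response is a shared reaction of cells to amino acid shortage, unfolded proteins in the endoplasmic reticulum, haem shortage and double-stranded RNA. Kinases that sense these conditions phosphorylate the translation initiation factor eIF2 on its alpha subunit, which slows most protein synthesis while the mRNA of the transcription factor ATF4 is translated more. ATF4 then drives genes for amino acid synthesis and transport, for further transcription factors such as CHOP, and for GADD34, which helps to remove the phosphate again. Because ATF4 is controlled largely at translation, and the kinases by their activity, mRNA levels of Atf4 and of the kinases do not measure how active the pathway is.

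The sequence through which ATF4 is known to act is the CARE, a composite element that joins a C/EBP site with an ATF site. Its core TGATGNAA, or TTNCATCA on the other strand, was searched in RefSeq promoter windows of GRCm38.p6 that run from 250 bases before to 50 bases after each start site. Of 27025 genes with a window, 4.51% held a match. The windows of 3 of the 10 genes held it, those of Asns, Trib3 and Chac1. The full CRE palindrome TGACGTCA, which does not overlap the CARE core matches shown, was found for 2.03% of all genes and for 1 of the 10, Ppp1r15a. The matches are printed 5′ to 3′ on the strand of the gene, with the matched letters in capitals, because these are the members whose windows held a match to either sequence.
Asns: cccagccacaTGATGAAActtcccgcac
Trib3: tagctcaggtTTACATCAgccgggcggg
Chac1: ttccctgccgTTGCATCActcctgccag
Ppp1r15a: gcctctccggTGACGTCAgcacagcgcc

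The stretch of Asns lies at chr6:7693215-7693242 on the minus strand, with the match at -23 to -16 from the RefSeq start and inside the 5′ untranslated region of the GENCODE gene model. The Chac1 stretch lies at chr2:119351039-119351066 on the plus strand, with the match at -193 to -186, and the Trib3 stretch at chr2:152344029-152344056 on the minus strand, with the match at 15 to 22 after the RefSeq start. For Ppp1r15a the stretch lies at chr7:45526263-45526290 on the minus strand, with the match at -12 to -5. The last 3 matches lie outside the GENCODE gene models. A match of these letters is a description of the window and not evidence of binding.

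The deposited values, called levels below, are whole read counts that were divided by a size factor for each library. Dividing by the value of 1 read (0.967 for the control and 1.14 for the cKO library) recovered 20239325 control and 18327535 cKO reads in all. Mettl14 had 948 control and 652 cKO reads, a log2 change of -0.31 with a 95% interval of -0.45 to -0.16. Foxp3 had 1547 and 1361 reads, a log2 change of 0.05 with an interval of -0.06 to 0.15. Changes are given throughout as log2 of (cKO level + 1) over (control level + 1), which understates the change of low genes. The intervals are exact Clopper-Pearson intervals of the cKO share of a gene's reads turned into a ratio, and they cover counting error only. They take each read as independent, although reads lack molecular identifiers and repeat reads of 1 molecule could not be told apart. Since each genotype had only 1 library, replicate error could not be estimated, and a difference between the libraries cannot be told apart from a difference between mice, isolations or library preparations.

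The libraries also differed in cell markers and in other gene groups, and these values stand beside the results that follow. T cell markers (15 of 16 found) had a median log2 change of -0.25, with 14 of 15 below 0, and none had fewer than 1231 reads in either library. The 12 Treg markers, Foxp3 among them, had a median of 0.10, with 7 above 0 and 5 below 0. At least 1.5-fold higher were 2, Lrrc32 (1.35) and Il2ra (0.68), and 2 were lower, Ikzf4 (-0.71) and Tnfrsf4 (-0.68). With the median T cell marker set equal, 5 Treg markers were higher and 0 lower, with a median of 0.35. The 10 B cell markers and the 12 macrophage markers all had cKO levels at least 1.5-fold above the control, with medians of 2.47 and 2.23, whereas 11 of 12 erythroid markers were at least 1.5-fold lower, with a median of -1.16. None of these markers was at 0 in either library. Their summed reads went from 7736 to 36690 for B cells, from 27102 to 49259 for macrophages and from 42274 to 15821 for erythroid cells. The 13 granulocyte markers held 262757 and 303150 reads, more than the 74205 and 51210 reads of the T cell markers, so RNA of genes that mark other cells was present in both libraries labelled Treg. Of 10 early response genes, listed after values were seen, 8 were at least 1.5-fold higher and the median was 1.92, and of 10 cell cycle genes, also listed after values were seen, 9 were at least 1.5-fold lower and the median was -0.69. With the median T cell marker set equal, a scaling that adds 0.25 to each log2 change, only 1 of these cell cycle genes was at least 1.5-fold lower, all 10 were below 0 and the median was -0.44. In bulk RNA, fewer cells of a type and less RNA per cell cannot be told apart.

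The 10 genes did not share a direction. All 10 passed the minimum mean level of 1, 5 had a log2 change above 0 and 5 below 0, and their median was -0.09 against -0.04 over the 16659 genes tested. At a threshold of 1.5-fold, 1 gene was higher (Eif2ak3) and 2 were lower (Trib3 and Asns), which is 10% and 20% of the members. Over all genes tested, 7784 were above 0 and 8875 below 0, and 17.2% passed the threshold as higher and 24.2% as lower. The members' counts thus lie near the background. An exact binomial test of the reads (two-sided) compares these libraries and not the genotypes. At an adjusted p under 0.1 and 1.5-fold it called 1 member higher and 2 lower. Because it kept the 1.5-fold threshold, it could remove members from these counts but not add any. It called 14.8% of 14863 genes higher and 17.5% lower. The split over all genes depended on the scaling, since 41.6% of the genes past 1.5-fold were higher with the deposited scaling and 56.4% when the median T cell marker was set equal.

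**Figure D1:**
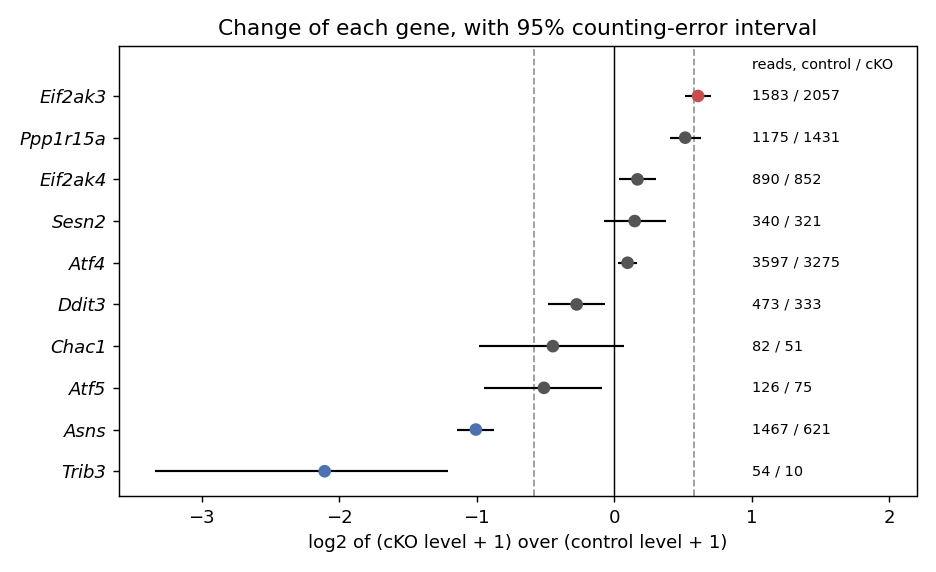
The log2 change of each of the 10 genes (points) on the horizontal axis, with its 95% counting-error interval (lines), the 1.5-fold thresholds (dashed) and the reads of both libraries at the right. Red marks the gene at least 1.5-fold higher and blue the genes at least 1.5-fold lower: only Eif2ak3, Asns and Trib3 lie outside the dashed lines.

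Levels between genes were compared per kb of exon, using the union of GENCODE exons. Atf4 was the most abundant member in both libraries, at 1476 per kb in controls and 1579 in cKO. In the control library Asns followed at 519, Ppp1r15a at 387, Ddit3 at 267 and Eif2ak3 at 254. The lower members were Eif2ak4 at 115, Sesn2 at 94.7, Atf5 at 61.2, Chac1 at 48.5 and Trib3 at 24.6 per kb. By exact Poisson intervals of each level, Ddit3 could not be ordered against Eif2ak3, nor Atf5 against Chac1, while all other neighbours in the order were separate. In the cKO library Ppp1r15a came next at 554 per kb, followed by Eif2ak3 at 388, Asns at 258 and Ddit3 at 221, and the 5 lower members kept their order. There the intervals of Asns and Ddit3 overlapped, as did those of Atf5 and Chac1. Asns therefore stood above Ppp1r15a and Eif2ak3 in the control library and below both in the cKO library.

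**Figure D2:**
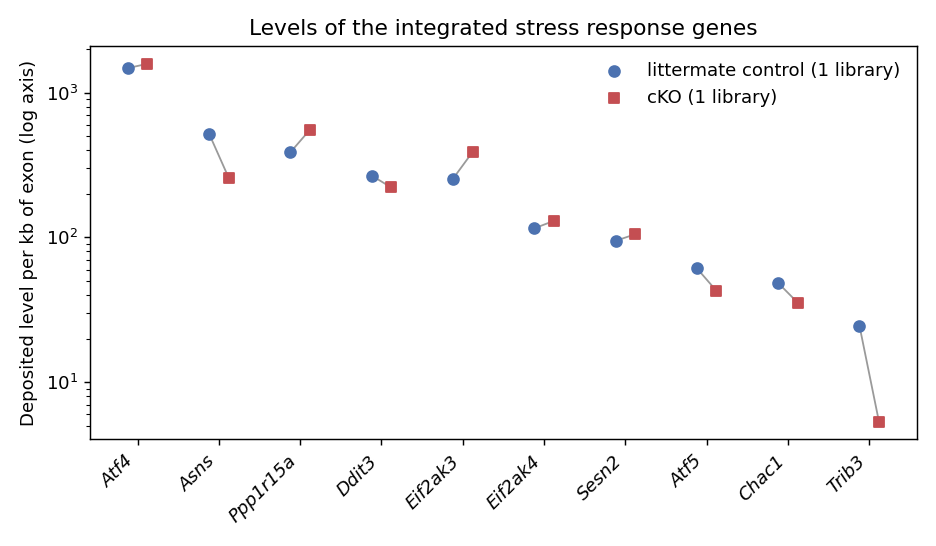
Deposited level per kb of exon (vertical log axis) of each gene in the littermate control library (circle) and the cKO library (square), 1 library each, joined by a line. Atf4 is highest in both, and the steepest drop is that of Trib3, from 24.6 to 5.35.

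Of the 2 kinases among the members, only the sensor of endoplasmic reticulum stress passed 1.5-fold. Eif2ak3 encodes PERK, whose luminal domain responds to unfolded proteins, and lies at chr6:70844515-70905245 on the plus strand (GRCm38, 19 exon blocks). It had 1583 control and 2057 cKO reads, at levels of 1531 and 2339. The cKO library was thus 1.53-fold higher, a log2 change of 0.61 with an interval of 0.52 to 0.71 that lies above 0 and includes the threshold of 0.58. Among genes tested, 16.5% had a change at least as high, and among genes with at least 1000 and under 10000 control reads 7.35% were past 1.5-fold higher. Eif2ak4 encodes GCN2, which responds to uncharged tRNA, and lies at chr2:118388618-118475234 on the plus strand (41 exon blocks). It had 890 and 852 reads, at levels of 861 and 969, a log2 change of 0.17 with an interval of 0.03 to 0.31. Eif2ak3 overlaps the unclassified gene Gm43292 by 2449 bases on the opposite strand, and 485 of its exonic bases are shared. Gm43292 has no row under that symbol, so the part of its reads in the value of Eif2ak3 was not tested. With library totals as the scaling, the change of Eif2ak3 was 0.52, below the threshold. The B cell, macrophage and early response genes were higher in the same library, and their part in the change of Eif2ak3 was not tested.

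The mRNA of the central factor was nearly level between the libraries. Atf4, at chr15:80255184-80257541 on the plus strand, had 3597 control and 3275 cKO reads, at levels of 3480 and 3724. Its log2 change was 0.10 with an interval of 0.03 to 0.17, and it was 0.0078 with library totals as the scaling.

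Both members at least 1.5-fold lower are genes that ATF4 is known to induce. Asns, the enzyme that makes asparagine from aspartate and glutamine, lies at chr6:7675169-7693254 on the minus strand (13 exon blocks). It had 1467 control and 621 cKO reads, at levels of 1419 and 706. This was 2.01-fold lower, a log2 change of -1.01 with an interval of -1.14 to -0.87. Among genes tested 18.1% had a change as low or lower. Among the 4683 genes with at least 1000 and under 10000 control reads 6.64% were at least 1.5-fold lower. These bins were set by control reads, the library in which Asns was higher. The share was 12.5% among genes with at least 100 and under 1000 control reads, the range that holds its 621 cKO reads. Trib3, a pseudokinase that restrains ATF4 and CHOP activity and binds AKT, lies at chr2:152337422-152344032 on the minus strand (4 exon blocks). It had 54 control and 10 cKO reads, at levels of 52.2 and 11.4. The change was 4.30-fold lower, or -2.11 on the log2 scale, with an interval of -3.34 to -1.21 that is wide because the reads are few. Among genes tested 12.6% had a change as low or lower. Among the 3423 genes with at least 10 and under 100 control reads 50.5% were at least 1.5-fold lower and 19.5% higher. A lower value was thus common among them, but a bin set by control reads favours genes that were high in that library. Asns and Trib3 carry the CARE core printed above, as does Chac1. Erythroid markers and cell cycle genes were lower in the same library, and their part in the changes of Asns and Trib3 was not tested.

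The other targets stayed within 1.5-fold. Ddit3, Atf5 and Chac1 had values below 0, while Sesn2 and, in the next paragraph, Ppp1r15a had values above 0. Ddit3, which encodes the transcription factor CHOP and lies at chr10:127290829-127293753 on the plus strand, had 473 and 333 reads at levels of 458 and 379, a log2 change of -0.27 (-0.48 to -0.07). Atf5, a factor linked to the mitochondrial unfolded protein response, lies at chr7:44812256-44816658 on the minus strand and had 126 and 75 reads at levels of 122 and 85.3, a change of -0.51 (-0.95 to -0.09). Chac1, which breaks down glutathione, lies at chr2:119351229-119354381 on the plus strand and had 82 and 51 reads at levels of 79.3 and 58.0, a change of -0.45 (-0.99 to 0.07). The intervals of Ddit3 and Atf5 lie below 0, and that of Chac1 holds 0. Sesn2, which senses leucine upstream of mTORC1, lies at chr4:132492032-132510501 on the minus strand and had 340 and 321 reads at levels of 329 and 365. Its change of 0.15 had an interval of -0.07 to 0.37, which holds 0. The span of Atf5 overlaps that of Nup62 (2123 and 1503 reads) by 571 bases and that of Il4i1 (294 and 370 reads) by 272 bases on the opposite strand, with 82 exonic bases shared with each, and whether counting used strand is not given in the sources used here. If counting did not use strand, reads within those exonic bases cannot be told apart between Atf5 and these neighbours. The span of Sesn2 overlaps the non-coding gene Gm12981 by 6089 bases on the same strand, with 0 exonic bases shared.

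The phosphatase subunit among the members had a value above 0 without passing 1.5-fold. Ppp1r15a encodes GADD34, the stress-induced subunit that brings protein phosphatase 1 to eIF2 alpha, and lies at chr7:45522916-45526268 on the minus strand. It had 1175 control and 1431 cKO reads, at levels of 1137 and 1627. The cKO level was 1.43-fold higher, a log2 change of 0.52 with an interval of 0.41 to 0.63. It was 0.77, past the threshold, with the median T cell marker set equal. The span of Ppp1r15a overlaps that of Tulp2 (16 and 0 reads) by 717 bases on the opposite strand, with 12 exonic bases shared. Early response genes were higher in the same library, and their part in this value was not tested.

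Counting each member per 100 Atf4 reads within its own library needs no scaling between libraries. Trib3 had 1.50 reads per 100 Atf4 reads in controls and 0.305 in cKO, a log2 ratio of -2.30 (-3.44 to -1.31). Asns had 40.8 and 19.0, a ratio of -1.10 (-1.26 to -0.95), and Ddit3 13.1 and 10.2, a ratio of -0.37 (-0.59 to -0.15). Atf5 (3.50 and 2.29) and Chac1 (2.28 and 1.56) had ratios of -0.61 (-1.05 to -0.18) and -0.55 (-1.09 to -0.02). These 5 members, which are also the 5 with log2 changes below 0, were lower relative to Atf4 by more than their counting error. The comparison is not particular to them, since 59.9% of all genes tested had a log2 change at or below that of Atf4. Eif2ak3 (44.0 and 62.8) and Ppp1r15a (32.7 and 43.7) were higher relative to Atf4, with ratios of 0.51 (0.40 to 0.63) and 0.42 (0.29 to 0.55). For Eif2ak4 and Sesn2 the intervals of the ratio, -0.08 to 0.23 and -0.18 to 0.29, hold 0. This measure was chosen after the data were seen, and a ratio within a library shows unequal change and not which gene changed.

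**Figure D3:**
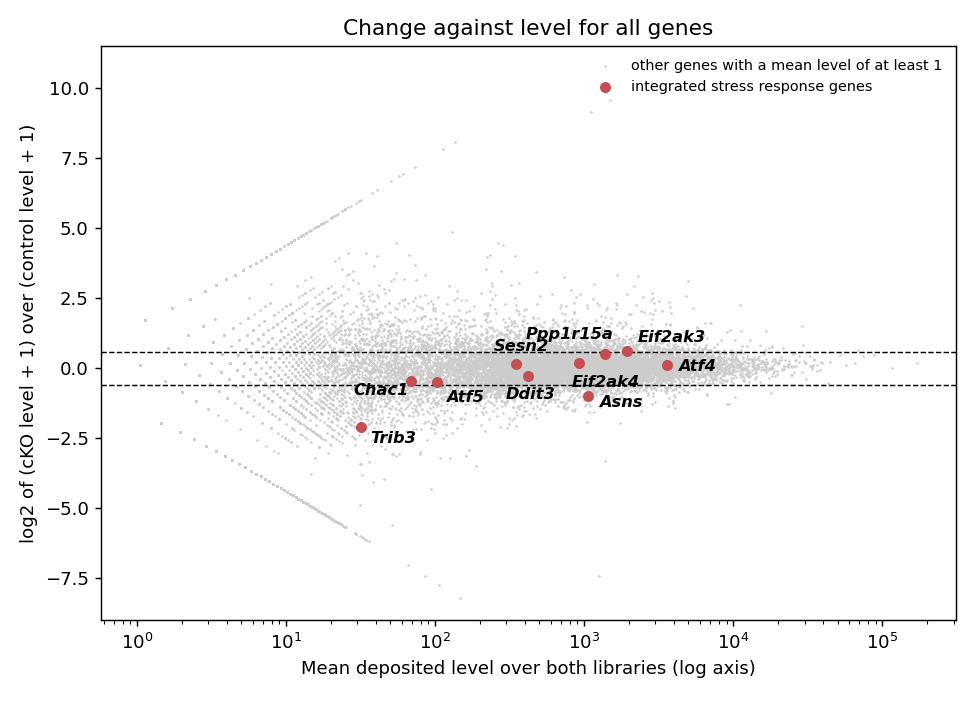
The log2 change of every gene with a mean level of at least 1 (grey) against its mean level over both libraries (horizontal log axis), with the 10 genes in red and the 1.5-fold thresholds dashed. Trib3 lies at a level where many genes are far from 0, while Asns and Eif2ak3 lie at levels where the grey cloud is narrow.

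The rest of the pathway was described with lists of known genes. For a list only counts and medians are given, beside the 17.2% and 24.2% of all genes past 1.5-fold and the median of -0.04 over all genes. Of the 16659 genes tested, 8875 were below 0 with the deposited scaling. Upstream of ATF4, none of 5 further kinases and cofactors passed 1.5-fold. Eif2ak1, the haem-regulated kinase, had 2338 and 1988 reads and a log2 change of -0.00069 (-0.09 to 0.09). Eif2ak2, the double-stranded RNA kinase PKR, had 1703 and 1496 reads and a change of 0.05 (-0.05 to 0.15). Impact, an inhibitor of GCN2, changed by 0.13 and the GCN2 activator Gcn1 by -0.07. The elevated member Eif2ak3 was thus the only 1 of the 4 eIF2 alpha kinases past 1.5-fold.

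Of the 8 subunits of the substrate and its exchange factor, 1 was at least 1.5-fold lower. All 8 eIF2 and eIF2B subunits had values below 0 with the deposited scaling, with a median of -0.37, and 7 of 8 with the median T cell marker set equal, with a median of -0.12. Eif2s1, the alpha subunit that carries the phosphorylated serine, had 2984 control and 1659 cKO reads. Its change of -0.61 (-0.70 to -0.53) was the only 1 of the list past 1.5-fold, against none with the median T cell marker set equal and 2 with library totals. Eif2b2, a subunit of the exchange factor, had 554 and 319 reads and a change of -0.56. The 4 phosphatase genes were all within 1.5-fold with a median of -0.07, and Ppp1r15b, the constitutive partner of Ppp1r15a, had 6835 and 5954 reads and a change of 0.03 (-0.02 to 0.08).

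Among 6 transcription factors that pair with ATF4 or act beside it, 3 were at least 1.5-fold higher, none lower, and the median was 0.67. Cebpb, a C/EBP factor that can dimerise with ATF4, had 515 control and 3334 cKO reads. Its level was 7.60-fold higher, a log2 change of 2.93 (2.79 to 3.06). Atf3, a stress-induced repressor, had 96 and 318 reads, 3.86-fold higher with a change of 1.95 (1.63 to 2.31). Nupr1, a small stress-induced chromatin protein, had 68 and 101 reads and a change of 0.79 (0.35 to 1.27). In contrast, Cebpg, the usual C/EBP partner of ATF4 on CARE sites, had 1262 and 973 reads and a change of -0.14 (-0.26 to -0.02). All 6, Cebpg included, were above 0 with the median T cell marker set equal, and 4 were then at least 1.5-fold higher. Cebpb is also abundant in macrophages, and Atf3 is an early response gene in many cells. The macrophage markers and the early response genes were higher in the same library with medians of 2.23 and 1.92, and their part in these changes was not tested.

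Amino acid transporters had values of both signs. Of 9 transporters, 2 were at least 1.5-fold higher and 3 lower, with a median of 0.15. The glycine transporter Slc6a9 had 188 control and 39 cKO reads, a change of -2.01 (-2.57 to -1.53). Slc1a4 for neutral amino acids had 95 and 40 reads, at levels of 91.9 and 45.5 with an interval of -1.59 to -0.47 for the log2 change, and Slc3a2, the heavy chain shared by several exchangers, had 3171 and 1781 reads and a change of -0.60 (-0.68 to -0.51). The last of these was within 1.5-fold with the median T cell marker set equal. Slc7a11, the cystine and glutamate exchanger, went the other way with 131 and 278 reads and a change of 1.31 (1.01 to 1.63). The arginine transporter Slc7a3 had 0 and 7 reads, 2.74-fold higher against a floor of 3 reads, with a log2 interval whose lower end was 0.76. The heavy chain and its light chain Slc7a11 therefore had values of opposite sign. Slc7a5, another light chain, named after its values were seen, had 1975 and 1419 reads and -0.24 (-0.34 to -0.14), the sign of Slc3a2. Cell markers also differed between the libraries, and their part in the transporter values was not tested.

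Enzymes of amino acid and one-carbon synthesis other than Asns had mostly lower values. Of 14 tested, none was at least 1.5-fold higher and 4 were lower, with a median of -0.41 and 12 of 14 below 0. With the median T cell marker set equal, 2 were higher and 3 lower, with 10 of 14 below 0 and a median of -0.16, and with library totals 6 were lower and none higher. Pycr1, the mitochondrial enzyme of proline synthesis, had 195 control and 41 cKO reads, a change of -1.99 (-2.54 to -1.52). Psat1, of serine synthesis, had 1161 and 558 reads and a change of -0.82 (-0.97 to -0.68). Cbs, of the route from homocysteine to cysteine, had 33 and 14 reads and a change of -0.96, and Cth, the next enzyme of that route, had 10 and 4 reads, so that both rest on few reads. Cth was named after its values were seen. Gpt2, which makes alanine, had 52 and 66 reads and a change of 0.57, within 1.5-fold.

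The synthetase list held 13 genes. They were aminoacyl-tRNA synthetases, which charge tRNAs with amino acids and are common ATF4 targets, and the tRNA exporter Xpot. All 13 were below 0 and within 1.5-fold, between -0.55 and -0.10 with a median of -0.37. With the median T cell marker set equal, 12 of 13 were below 0 and the median was -0.12, and with library totals 3 of 13 were at least 1.5-fold lower and the median was -0.46. Aars had 2869 and 1664 reads and a change of -0.55, Cars 1356 and 787 reads and also -0.55, and Eprs 7324 and 4420 reads and -0.50. The summed reads of the list were 37983 in controls and 24513 in cKO. Erythroid markers and cell cycle genes were lower in the same library, with medians of -1.16 and -0.69, and their part in the values of the synthetases, the eIF2 subunits and the synthesis enzymes was not tested.

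Other known targets of ATF4 and CHOP also differed in both directions. Of 12 listed, Fgf21 had 0 reads in both libraries, and of the 11 tested 2 were at least 1.5-fold higher and 4 lower, with a median of -0.12. These counts were 3 and 3 with the median T cell marker set equal. Vldlr, a lipoprotein receptor, had 40 control and 0 cKO reads. This was 11.3-fold lower against a floor of 3 reads, with a log2 interval whose upper end was -3.14. The secreted factor Stc2 had 30 and 11 reads, a change of -1.15 (-2.36 to -0.18). Tnfrsf10b, a death receptor named after its values were seen, had 167 and 93 reads and a change of -0.61. The peptide hormone gene Adm2 had only 4 and 0 reads, 1.13-fold lower against that floor. Its interval reaches up to 0.83 and holds 0, so its place among the 4 lower rests on the pseudocount. Bbc3, which encodes the cell death protein PUMA, had 188 and 460 reads and a change of 1.52 (1.28 to 1.78). Gdf15, a secreted stress cytokine, had 5 and 16 reads and a change of 1.72 (0.40 to 3.71). A known role as a target thus did not fix the sign of the difference.

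The other branches of the unfolded protein response stayed within 1.5-fold. None of 19 ATF6 and IRE1 branch genes passed 1.5-fold, and their values ran from -0.40 to 0.24 with a median of -0.06. Hspa5, the chaperone BiP, had 14468 and 12242 reads and a change of -0.0078, and Xbp1, the factor spliced by IRE1, had 4707 and 4541 reads and a change of 0.18. The chaperones Calr and Creld2 had the lowest values, -0.40 and -0.39. Of the 19 values 15 were above 0, with a median of 0.19, with the median T cell marker set equal. Xbp1 is also a plasma cell marker, and that list had a median of 0.14 with 2 of 7 markers at least 1.5-fold higher.

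**Figure D4:**
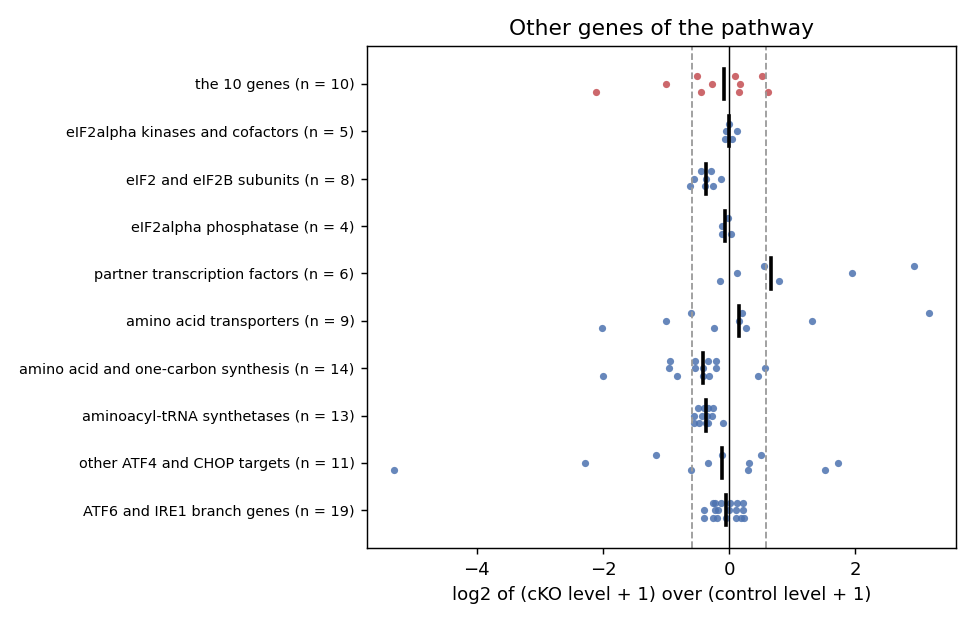
The log2 change of each gene tested (points, with the number in each list beside its name) for the 10 genes in red and for 9 lists of the pathway in blue, with the median of each list (black bar) and the 1.5-fold thresholds (dashed). With the deposited scaling plotted, the synthetase list, which includes the tRNA exporter Xpot, and the eIF2 subunits sit below 0. With the median T cell marker set equal, 12 of 13 and 7 of 8 do. As plotted, the partner transcription factors are mostly above 0, and the ATF6 and IRE1 branch genes cluster around 0. Genes with 0 reads in 1 library are plotted at their value with a pseudocount of 1, which is no bound.

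The CARE core was found in genes of both directions. Over the members and the pathway lists 20 genes held it and 19 were tested, of which 14 had log2 changes below 0 and 5 above 0, with a median of -0.39, and 5 were at least 1.5-fold lower and 3 higher. The counts below and above 0 were 13 and 6 with the median T cell marker set equal, and 15 and 4 with library totals. All 5 synthetase genes with a match were among those below 0 with the deposited scaling, as was every gene of that list with or without a match. Of the 16659 genes tested, 8875 were below 0 with that scaling, and their median over all was -0.04. The CARE core was present in the windows of 5 of 9 matched genes of the synthetase list and 3 of 6 partner factors. It was found for 3 of 12 synthesis enzymes, 2 of 6 transporters and 2 of 10 other targets. The other lists held few matches, with 1 of 7 eIF2 and eIF2B subunits and 1 of 16 ATF6 and IRE1 branch genes. It was found for 0 of 4 kinases and cofactors and 0 of 2 phosphatase genes. Among lists described further below, it was found for 0 of 4 paralogues, 0 of 8 GATOR and sensor genes, 0 of 6 p53 targets and 0 of 3 degrading enzymes. The share over all genes was 4.51%. The lists were made of known pathway genes, some of them known for this element, so these shares are a description. Genes with a match included Pycr1 and Vldlr, lower in the cKO library, and Slc7a11 and Atf3, higher in it, and their stretches are printed for comparison with the 3 members.
Pycr1: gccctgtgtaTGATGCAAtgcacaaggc
Vldlr: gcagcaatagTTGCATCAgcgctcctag
Slc7a11: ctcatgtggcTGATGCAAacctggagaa
Atf3: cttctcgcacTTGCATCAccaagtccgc

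These stretches lie at chr11:120643834-120643861 (minus strand), chr19:27216810-27216837 (plus strand), chr3:50443662-50443689 (minus strand) and chr1:191183426-191183453 (minus strand) of GRCm38.p6. By GENCODE the match of Vldlr is exonic, that of Atf3 intronic, and those of Pycr1 and Slc7a11 lie outside the gene, and for Slc7a11 the first of a pair of matches is shown. Read on either strand, the match of Pycr1, Vldlr, Slc7a11 and Atf3 is the same 8 letters, TGATGCAA or TTGCATCA, and so is that of Chac1, whereas Asns has TGATGAAA and Trib3 TTACATCA. These genes with the same 8 letters had changes from -1.99 for Pycr1 to 1.95 for Atf3, with Vldlr at 0 reads in the cKO library.

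**Figure D5:**
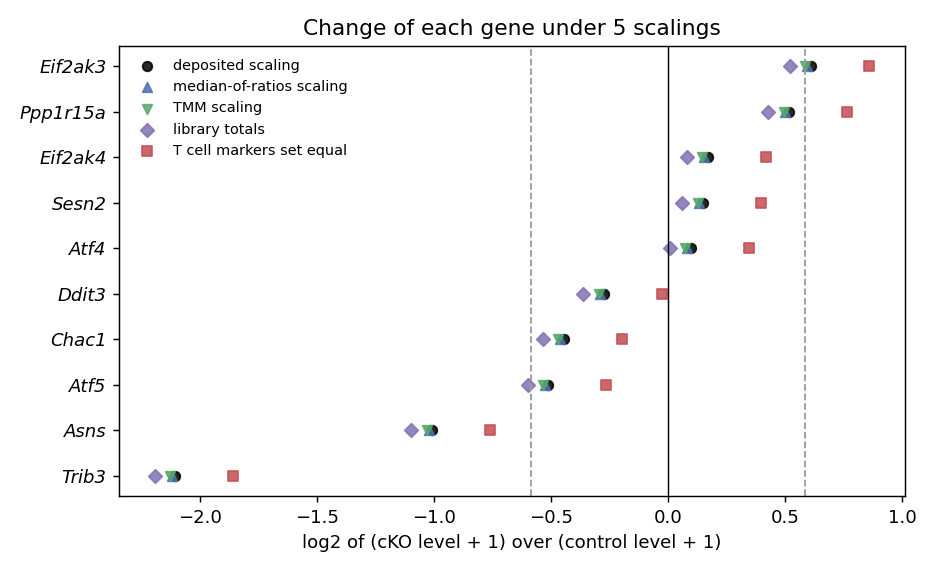
The log2 change of each of the 10 genes (horizontal axis) under 5 scalings of the libraries, with the 1.5-fold thresholds dashed. The deposited, median-of-ratios and TMM scalings almost coincide, and setting the median T cell marker equal moves every gene to the right by 0.25, which puts Ppp1r15a past the threshold together with Eif2ak3 and leaves Asns and Trib3 below the lower one.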

How the data were processed

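RNA-seq tables of 1 control and 1 cKO library were used. The deposited values are a signal, namely read counts that the authors divided by 1 size factor per library. All (100%) were whole multiples of the smallest value within 0.001, which gave the reads back. The methods state alignment to mm10 with TopHat, while the submitters' processing notes name bcl2fastq 2.0, STAR, StringTie and DESeq2 without roles. The annotation, counter and strand setting are not given in the sources used here.

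Changes used a pseudocount of 1, a minimum mean level of 1 and the study's threshold of 1.5-fold. Intervals at 95% are exact Clopper-Pearson and cover counting error only, as do the Poisson intervals of levels. The floor of a 0 was 3 reads, a level of 2.90 for the control and 3.41 for the cKO library. A fold against the floor leaves out the counting error of the other library. The exact binomial test on reads (genes with at least 10 reads over both libraries, Benjamini-Hochberg adjustment) was added after the unit was known. Symbols were looked up in GENCODE vM21 (GRCm38) and to RefSeq promoter windows, in which all 10 members matched. Python 3.11.15, scipy 1.17.1 and R 4.3.3 were used, with edgeR 4.0.16 and DESeq2 1.42.0 for scaling factors only. The scripts were tested on simulated data.

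All 10 members were named. In each list up to 4 genes with the largest absolute change at a mean level of at least 10 were eligible for naming, with genes at 0 reads in 1 library and some kinases and factors chosen by role. The members and lists were chosen with earlier results of these data known. Alternatives were pseudocounts, minimum levels, scalings and thresholds.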

Additional observations from a re-analysis of the deposited data

How the results depend on the processing

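With 1 library per genotype no library could be left out, and no result here has a replicate check. No paired analysis was possible because neither genotype had a second library. All 10 member changes moved little with pseudocounts of 0.1 or 5, median-of-ratios and TMM scaling. With the median T cell marker set equal, the member median was 0.16 and 2 members (Ppp1r15a and Eif2ak3) were at least 1.5-fold higher. No member was higher with library totals, where 3 were lower (Atf5 besides Asns and Trib3), nor with a threshold of 2-fold, so the call of Eif2ak3 rests on the scaling and the threshold, while Asns and Trib3 were lower under each alternative run. No member changed sign under any scaling run.

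Over all genes, 2864 were higher and 4028 lower. The counts were 4271 and 3303 with the median T cell marker set equal, 2112 and 2035 with a minimum mean of 10, 2182 and 1904 among genes above 0 in both libraries, 1722 and 3019 at 2-fold, and 2202 and 2603 by the test on reads. The lower counts thus held many genes of few reads. Among genes with at least 10 and under 100 control reads, 27.3% had 0 reads in the cKO library, against 0.0693% at 100 or more and under 1000, so depth limits Trib3 and Chac1 most.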

Other observations

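Of 5 paralogues of the members, 2 were at least 1.5-fold higher and 1 lower. Trib1, a pseudokinase related to Trib3, had 866 control and 1344 cKO reads, a log2 change of 0.87, where Trib3 had -2.11. Sesn1, a p53-responsive relative of Sesn2, had 1543 and 2123 reads and a change of 0.69, where Sesn2 had 0.15. Chac2, the constitutive relative of Chac1, had 189 and 90 reads and a change of -0.83, within 1.5-fold with the median T cell marker set equal, where Chac1 had -0.45. Trib2 had a change of -0.21 and Sesn3 of -0.02. The differences between paralogues and members were not tested.

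Of 10 genes for GATOR complexes and amino acid sensors of mTORC1, none was at least 1.5-fold higher and 2 were lower. Wdr59, of the GATOR2 complex to which Sesn2 binds, had 772 and 333 reads and a change of -0.98 (-1.17 to -0.79), and the arginine sensor Castor1 had 96 and 50 reads and a change of -0.70. With the median T cell marker set equal only 1 of the 10 was lower, and Castor1 was within 1.5-fold. Of 8 p53 targets, a list included because p53 also induces Sesn2, Cdkn1a was at least 1.5-fold higher with 104 and 134 reads and a change of 0.59 (0.22 to 0.98), and Eda2r had 8 and 0 reads. No p53 target was at least 1.5-fold higher with a pseudocount of 5 or with median-of-ratios, TMM or library-total scaling. The median of that list was -0.01.

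Enzymes that degrade amino acids had low reads and mixed values. Of 7 listed, Ido1 had 0 reads in both libraries, and of the 6 tested 3 were higher and 2 lower. Arg2, a mitochondrial arginase, had 212 and 339 reads and a change of 0.91, and Arg1 had 21 and 31 reads and a change of 0.77 (-0.05 to 1.67). Tph1 had 26 control and 0 cKO reads, 7.37-fold lower, and Ido2 had 19 and 0 reads, 5.39-fold lower. Tdo2 had 0 and 10 reads, 3.92-fold higher. These folds are against a floor of 3 reads. The log2 intervals ended at -2.48 for Tph1 and -1.99 for Ido2, and that of Tdo2 began at 1.40. Arg1 and Arg2 are also expressed by macrophages, whose markers were higher in the cKO library, and their part in these values was not tested.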
